A study of Mus musculus with 15 samples.

Results

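The interferon-stimulated genes are a set of genes whose transcription rises when a cell binds an interferon, and 45 of them were followed here in mouse liver. A gene was kept when a single transcript cluster on the array carried its name alone, and the cluster with the highest mean was taken where a gene had more than 1. This left 41 of the 45 genes, among 22180 genes measured in all. They comprised 31 of 34 genes listed here as targets of type I interferon and 8 of 9 listed as targets of interferon gamma. The other 2, Irf1 and Cxcl10, were listed as answering to both. A place in 1 class does not mean that a gene answers to that interferon alone. The clusters of Gbp2, Oas1a and Dtx3l each named a further gene and Ifi44 matched no cluster, so these 4 were not analysed here. In 35 of the 41 measured genes the weight-matched sham livers had the lowest group mean, a place they held in 37.6% of all genes tested.

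Liver RNA came from 15 male ApoE3L.CETP mice, which carry human lipoprotein transgenes, on GeneChip Mouse Gene 2.0 ST arrays with 1 array per mouse. The mice were 9 to 12 weeks old per the labels, ate a diet of 60% fat and 0.25% cholesterol for 6 weeks before surgery, and were killed 20 days after it. RYGB mice (n = 6) had Roux-en-Y gastric bypass, in which food is led from a small stomach pouch past the duodenum into the jejunum. BWm mice (n = 4) had sham surgery with their weight matched to that of RYGB mice, by a procedure not given in the sources used here. Sham AL mice (n = 5) had sham surgery and ate ad libitum. The genotype, the diet and an abdominal operation were thus common to all groups, and no group without surgery was analysed here. The titles call the arrays biological replicates, and p-values measure the spread between these arrays.

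Type I interferons (the interferon alphas and interferon beta) signal through IFNAR1 and IFNAR2 to a complex that holds STAT2 and IRF9 and binds the interferon-stimulated response element (ISRE) in target promoters. Interferon gamma, made mainly by T and NK cells, signals through its own receptor, and its targets are known for the gamma-activated site (GAS). Hepatocytes and Kupffer cells respond to both, and the targets include RNA sensors, antiviral enzymes, the ISG15 protein modifier, GTPases that attack pathogen vacuoles, and the proteins that load peptides on MHC class I.

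The ISRE was searched as a pair of GAAA runs with any 2 bases between them and the GAS as TTCNNNGAA, on both strands, in RefSeq promoter windows (GRCm38.p6) from 250 bases before to 50 bases after the annotated transcription start. Windows were matched for 35 of the 45 listed genes, and 17 of these (48.6%) held an ISRE, against 3.99% of the 27025 genes with a window. The GAS was found in 9 of the 35 (25.7%), against 9.55% of all genes. By class, 11 of 25 type I targets, 5 of 8 interferon gamma targets and 1 of the 2 shared targets held an ISRE. For the GAS these counts were 5 of 25, 3 of 8 and 1 of 2. A match describes the letters of the window and not binding.

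The windows of 5 genes are shown because their RNA values carry the comparisons below, or because they show both motifs or neither. Capitals mark letters of an ISRE or GAS match, and each is printed 5′ to 3′ on the strand of its gene. Isg15 is at chr4:156200769-156201068 (minus strand), with 3 overlapping ISRE matches between positions -78 and -57. Ifit1 is at chr19:34640639-34640938 (plus strand), with ISRE matches on the opposite strand at -104 to -95 and -85 to -76. Ifih1 is at chr2:62646206-62646505 (minus strand), with its match after the start, at 33 to 42. Igtp is at chr11:58199306-58199605 (plus strand), with a GAS at -45 to -37 and an ISRE at -34 to -25. Tap1 is at chr17:34187306-34187605 (plus strand) and holds neither; 275 bases of it are also the promoter window of Psmb9, which is read the other way.
Isg15: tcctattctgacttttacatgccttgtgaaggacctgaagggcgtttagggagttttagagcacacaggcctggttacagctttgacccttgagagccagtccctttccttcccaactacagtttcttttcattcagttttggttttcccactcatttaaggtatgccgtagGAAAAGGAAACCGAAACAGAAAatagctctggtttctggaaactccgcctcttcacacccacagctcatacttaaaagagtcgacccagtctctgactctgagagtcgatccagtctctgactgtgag
Ifit1: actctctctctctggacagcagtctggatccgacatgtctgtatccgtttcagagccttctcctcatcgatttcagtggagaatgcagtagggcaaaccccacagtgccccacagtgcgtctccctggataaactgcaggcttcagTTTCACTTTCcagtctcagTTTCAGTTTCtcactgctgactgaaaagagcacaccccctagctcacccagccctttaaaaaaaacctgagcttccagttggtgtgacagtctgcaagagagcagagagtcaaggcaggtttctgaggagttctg
Ifih1: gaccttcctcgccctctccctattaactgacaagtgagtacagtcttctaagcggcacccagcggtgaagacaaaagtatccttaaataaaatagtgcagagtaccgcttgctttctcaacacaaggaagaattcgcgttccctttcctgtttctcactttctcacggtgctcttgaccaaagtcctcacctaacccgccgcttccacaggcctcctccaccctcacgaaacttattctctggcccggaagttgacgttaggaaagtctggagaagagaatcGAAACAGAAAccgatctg
Igtp: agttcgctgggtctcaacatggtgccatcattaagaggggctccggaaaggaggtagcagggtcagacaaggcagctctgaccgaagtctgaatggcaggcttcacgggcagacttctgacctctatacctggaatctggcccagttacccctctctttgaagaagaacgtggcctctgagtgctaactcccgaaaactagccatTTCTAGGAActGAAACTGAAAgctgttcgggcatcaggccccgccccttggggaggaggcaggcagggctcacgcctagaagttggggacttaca
Tap1: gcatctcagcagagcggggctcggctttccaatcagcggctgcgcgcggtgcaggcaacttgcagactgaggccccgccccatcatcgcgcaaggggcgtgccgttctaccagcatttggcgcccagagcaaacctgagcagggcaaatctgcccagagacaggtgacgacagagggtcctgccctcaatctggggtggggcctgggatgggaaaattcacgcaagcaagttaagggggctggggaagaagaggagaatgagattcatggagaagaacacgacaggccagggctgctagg

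The same element stands in members whose RNA did not pass the test in any comparison, and 6 of these are set side by side to show it. Each line gives 30 bases in the orientation that reads GAAA, with the matches in capitals. They lie at chr12:26456553-26456582 (plus strand) for Rsad2, chr19:34583397-34583426 (minus) for Ifit3, chr8:71537577-71537606 (minus) for Bst2, chr3:142530273-142530302 (minus) for Gbp7, chr11:48871425-48871454 (minus) for Irgm1 and chr5:92349083-92349112 (minus) for Cxcl10.
Rsad2: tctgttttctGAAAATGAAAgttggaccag
Ifit3: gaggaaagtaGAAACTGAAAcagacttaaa
Bst2: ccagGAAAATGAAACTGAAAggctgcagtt
Gbp7: atggagaactGAAACTGAAActgcacacac
Irgm1: tcaaGAAATAGAAACCGAAActgattctca
Cxcl10: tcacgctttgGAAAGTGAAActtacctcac
Of the measured members with a window, 2 of the 8 that rose in RYGB against BWm held an ISRE, against 13 of the 23 that did not pass. For members that fell in BWm against Sham AL the counts were 3 of 8, against 12 of 23. The first 8 leave out Usp18, Mx2, Dhx58 and Zbp1, which have no window here, and include the overlapping windows of Psmb9 and Tap1.

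**Figure D1:**
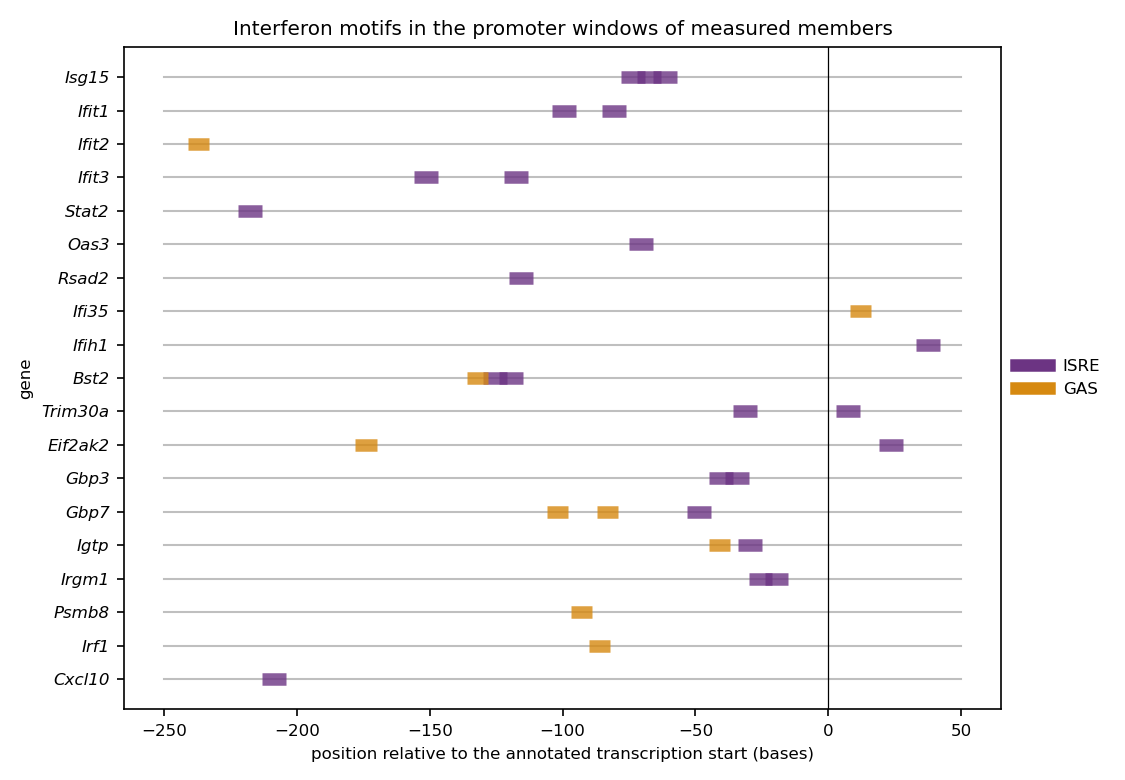
Position of ISRE (purple) and GAS (orange) letter matches in the promoter windows of the measured members that hold at least 1, in bases from the annotated transcription start; grey lines are the windows. ISRE matches lie mostly upstream of the start. Those of Ifih1 and Eif2ak2 lie after it, as do the Trim30a ISRE match at 3 to 12 and the Ifi35 GAS match at 8 to 16.

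All values below are log2 signals from the robust multi-array average (RMA), so a difference of 1 is a doubling in measured signal, and fold changes are differences of group means with a moderated standard error (SE). A gene was called when limma's moderated test gave a Benjamini-Hochberg adjusted p under 0.05 over all 22180 genes. The array medians lay between 3.89 and 4.02. The liver of Sham AL replicate 4 carried RNA of other tissues: Cyp11b1, a marker of adrenal cortex, measured 10.37 there against 2.39 to 3.22 on the other 14 arrays, and Ucp1, a marker of brown fat, 11.89 against 3.31 to 4.54. The defining hepatocyte gene Alb averaged 12.89 in RYGB, 12.9 in BWm and 12.87 in Sham AL livers. Values without that array are given where it changed a call.

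At a matched body weight, bypass livers had more RNA of a part of the interferon-stimulated genes. In RYGB against BWm, 12 of the 41 members rose (29.3%) and 0 fell, while of all genes tested 4.02% rose, 2.34% fell and 6.36% were called in either direction. Usp18 (2.23-fold), Isg15 (2.22-fold), Oasl1 (1.91-fold) and Zbp1 (1.82-fold) had the largest differences, and the RNA sensor gene Ifih1 (1.55-fold) and the antigen processing genes Psmb9 (1.56-fold) and Tap1 (1.49-fold) also rose. The median log2 fold change over the 41 members was 0.29, and 0 over all genes tested, and 36 of the 41 were above 0. In 9 members all RYGB arrays lay above all BWm arrays (4.71% of all genes tested did so) and in 0 all lay below (2.91% of all genes). With quantile normalization 7 of the 12 calls held, Mx2, Dhx58, Xaf1, Psmb9 and Tap1 being lost. With the animal number as a block (under 50 in 3 RYGB and 1 Sham AL mice and no BWm mouse, meaning not stated) 8 held, Mx2, Dhx58, Psmb9 and Tap1 being lost.

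The BWm livers also lay below the livers of ad libitum fed mice. In BWm against Sham AL, 9 of 41 members fell (22%) and 0 rose, while of all genes tested 1.3% fell, 1.53% rose and 2.84% were called in either direction. Isg15 fell 1.86-fold, Ifit1 1.69-fold, Psmb9 1.68-fold, Oasl1 1.67-fold and Samd9l 1.59-fold. The members' median was log2 -0.29, against -0.01 for all genes tested, and in 12 members all BWm arrays lay below all Sham AL arrays (3.39% of all genes tested did so) and in 0 all lay above (3.46% of all genes). In RYGB against Sham AL, 1 of 41 members rose, Usp18, and 0 fell, while of all genes tested 0.938% rose, 0.442% fell and 1.38% were called in either direction. In 0 members did all RYGB arrays lie above all Sham AL arrays (1.58% of all genes) or below them (0.812%). The median over the members was log2 -0.01 in that comparison, and 3 of 41 had an unadjusted p under 0.05. The share of all genes tested at an unadjusted p under 0.05 was 18.4% in RYGB against BWm, 15.3% in BWm against Sham AL and 12.9% in RYGB against Sham AL, and counts at that p given below are to be read against it. RYGB against BWm and BWm against Sham AL share the 4 BWm arrays, so a low BWm value enters both with opposite signs, and they are not independent of each other.

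**Figure D2:**
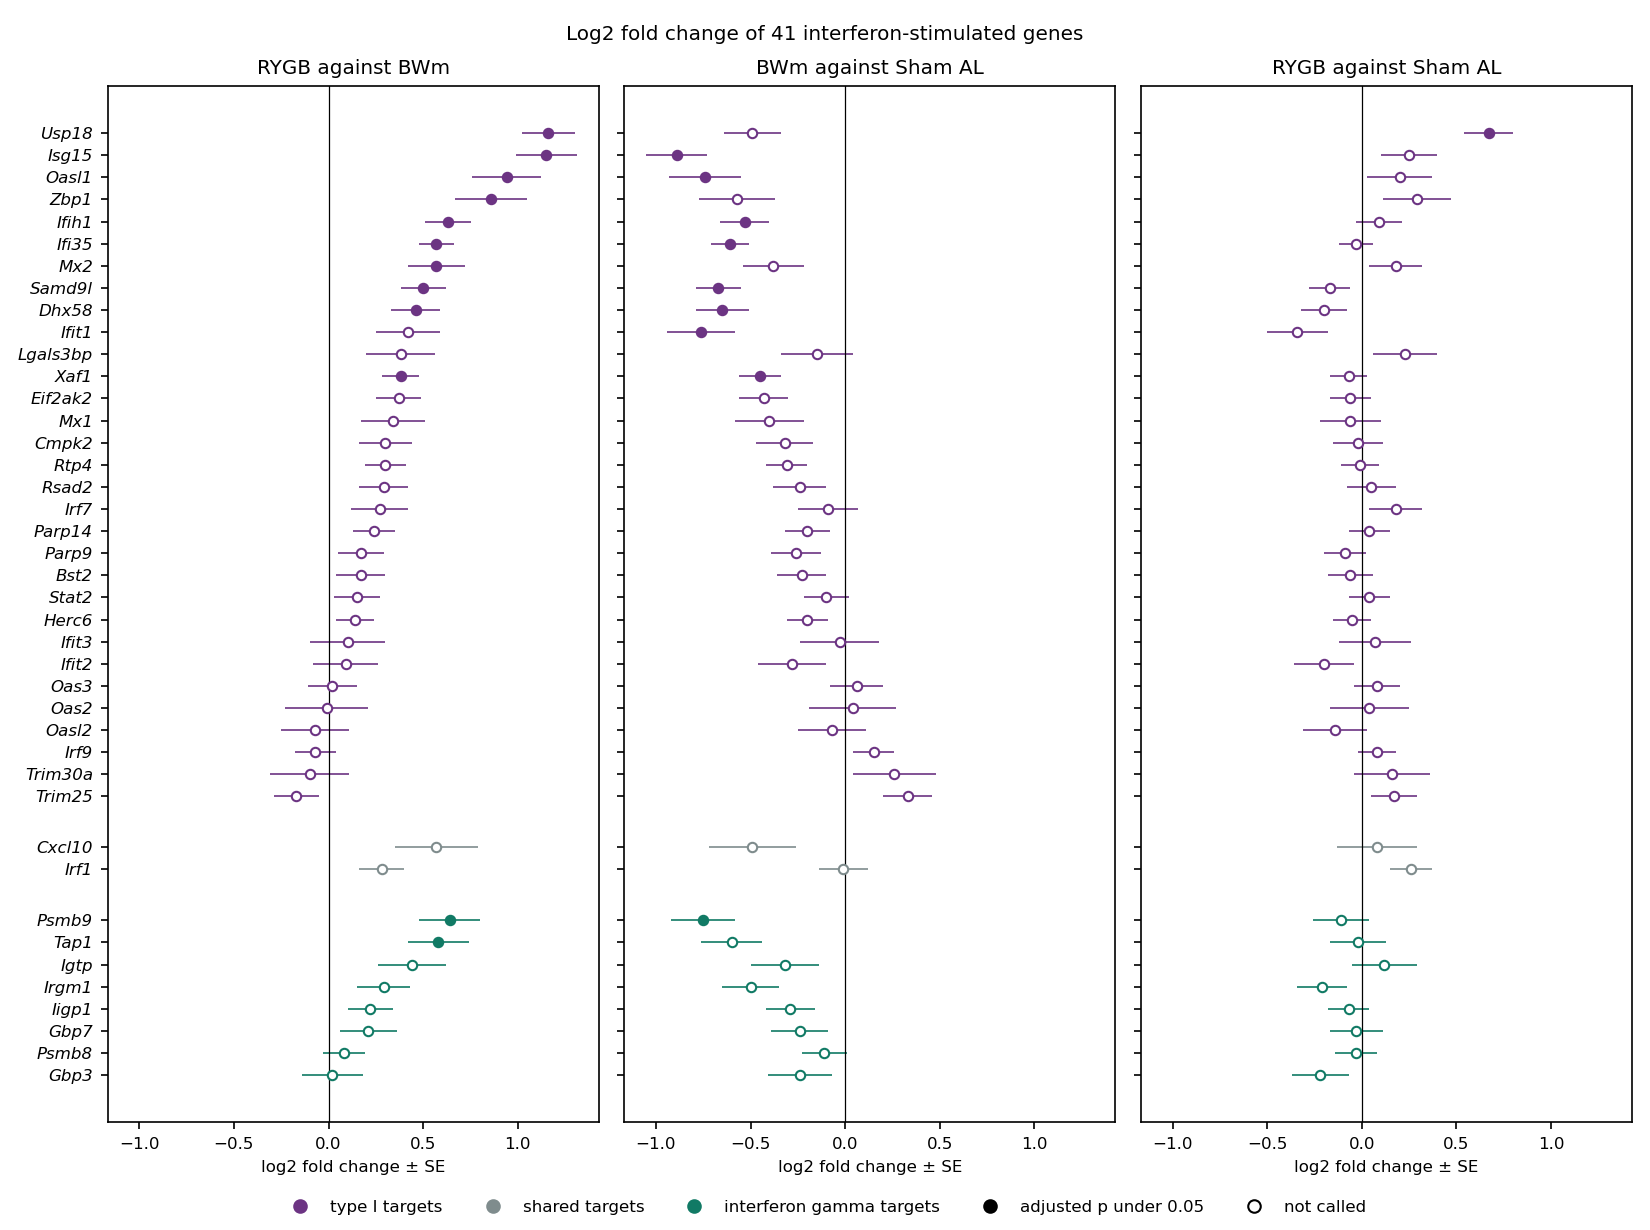
Log2 fold change (point) with its SE (bar) of the 41 measured members in the 3 comparisons, grouped as type I targets (purple), shared targets (grey) and interferon gamma targets (green); filled points passed an adjusted p of 0.05. Most points lie right of 0 in RYGB against BWm and left of 0 in BWm against Sham AL, and in RYGB against Sham AL only Usp18 passed.

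Isg15 and Usp18, of the ISG15 system, had the 2 largest differences of the members in RYGB against BWm. ISG15 is a ubiquitin-like protein that is attached to other proteins, and it is removed again by the protease USP18, which also dampens signalling from the type I receptor. Isg15 measured 5.92, 6.08 and 6.37 (lowest, median and highest) in the 6 RYGB livers, 5.24, 5.05, 4.37 and 5.16 in the BWm livers, and 5.79, 5.88, 5.59, 5.84 and 6.14 in the Sham AL livers. All BWm values were under all values of both other groups, whose ranges overlapped. The gene rose in RYGB against BWm by log2 1.15 ± 0.16 SE (adjusted p = 0.00026, limma) and fell in BWm against Sham AL, with log2 -0.89 ± 0.16 (adjusted p = 0.0057, limma). In RYGB against Sham AL it was log2 0.25 ± 0.15 (adjusted p = 0.51, limma).

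Usp18 was the member that also rose against the ad libitum fed livers. It measured 7.4, 8.0 and 8.1 (lowest, median and highest) in RYGB livers, 6.66, 7.02, 6.6 and 6.72 in BWm livers, and 7.34, 7.3, 7.09, 6.97 and 7.47 in Sham AL livers. RYGB values lay above all BWm values, and 5 of the 6 lay above all Sham AL values, the exception being replicate 5 at 7.4. The differences were log2 1.16 ± 0.14 SE in RYGB against BWm (adjusted p = 0.00011, limma) and 0.67 ± 0.13 in RYGB against Sham AL (adjusted p = 0.014, limma). BWm against Sham AL was at log2 -0.49 ± 0.15 (adjusted p = 0.089, limma) and was not called. Its adjusted p was 0.044 when dim genes were left out. Without RYGB replicate 5, which enters this comparison through the shared estimate of the spread, the adjusted p was 0.037.

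Other parts of the system were less uniform. Herc6, whose product attaches ISG15 in mice, was at log2 0.14 ± 0.10 in RYGB against BWm and was not called. Trim25, a ubiquitin ligase that activates the RNA sensor RIG-I, went the other way at -0.17 ± 0.12, and was also not called. Ube2l6, the conjugating enzyme for ISG15, is not among the 45 genes but stood on a list of other type I targets. It rose by log2 0.69 ± 0.13 in RYGB against BWm (adjusted p = 0.0026, limma) and fell in BWm against Sham AL (log2 -0.55 ± 0.13, adjusted p = 0.033, limma). Uba7, the activating enzyme, did not pass in any of the comparisons.

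Of the 4 sensors of foreign nucleic acid among the members, 3 rose in RYGB against BWm and 2 fell in BWm against Sham AL. The shares of all genes tested were 4.02% and 1.3%. Ifih1 encodes MDA5, which detects long double-stranded RNA. It measured 7.91, 8.05 and 8.28 (lowest, median and highest) in RYGB livers, 7.63, 7.26, 7.1 and 7.74 in BWm livers, and 7.94, 8.0, 7.87, 7.92 and 8.13 in Sham AL livers. BWm values lay below those of both other groups, without overlap. Ifih1 rose in RYGB against BWm (log2 0.63 ± 0.12 SE, adjusted p = 0.0038, limma) and fell in BWm against Sham AL (log2 -0.53 ± 0.13, adjusted p = 0.03, limma). That fall no longer passed without Sham AL replicate 2 or 5 or BWm replicate 2 or 3 (highest adjusted p 0.12).

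Dhx58, which encodes the MDA5 partner LGP2, measured 5.48, 5.99 and 6.14 (lowest, median and highest) in RYGB livers, 5.49, 5.62, 5.07 and 5.6 in BWm livers, and 6.08, 6.1, 6.07, 6.08 and 6.17 in Sham AL livers. Sham AL values lay close together and above all BWm values, while the lowest RYGB liver, replicate 1, was within the BWm range. It fell in BWm against Sham AL (log2 -0.65 ± 0.14, adjusted p = 0.014, limma), a call that ended without BWm replicate 3 (adjusted p = 0.062). The rise in RYGB against BWm (log2 0.46 ± 0.13, adjusted p = 0.047, limma) was near the threshold. It ended in 13 of the 15 fits that left out 1 array, all but those without RYGB replicate 1 or Sham AL replicate 4 (highest adjusted p 0.19).

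Zbp1 encodes a sensor of Z-form nucleic acids that can start necroptosis. Its signal was 6.03, 6.89 and 7.26 (lowest, median and highest) in RYGB livers, 6.03, 6.04, 5.6 and 6.27 in BWm livers, and 6.36, 6.77, 6.73, 6.37 and 6.56 in Sham AL livers. RYGB replicate 1 lay within the BWm range and the other 5 RYGB livers above all BWm and Sham AL livers. Zbp1 rose in RYGB against BWm (log2 0.86 ± 0.19 SE, adjusted p = 0.0096, limma), and without BWm replicate 3 its adjusted p was 0.05 and the call ended. BWm against Sham AL was not called over all arrays (log2 -0.57 ± 0.20, adjusted p = 0.15) and had an adjusted p of 0.042 without RYGB replicate 1. Eif2ak2, the gene of the RNA-activated kinase PKR, was at log2 0.37 ± 0.12 in RYGB against BWm and -0.43 ± 0.13 in BWm against Sham AL, with adjusted p = 0.086 and 0.08 (limma), and 0.041 and 0.037 when dim genes were left out. The second was 0.046 without RYGB replicate 3. BWm arrays lay below all arrays of both other groups in this gene.

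On a list of 13 further genes of nucleic acid sensing, the 2 that passed were Ddx58, the gene of RIG-I, and Ikbke, a kinase gene that acts below RIG-I and MDA5. Both rose in RYGB against BWm (log2 0.65 ± 0.10, adjusted p = 0.00047, and 1.3 ± 0.17, adjusted p = 2e-04, limma). Both fell in BWm against Sham AL (log2 -0.62 ± 0.10, adjusted p = 0.0027, and -1.02 ± 0.18, adjusted p = 0.0046, limma). Of all genes tested, 4.02% rose in the first of these comparisons and 1.3% fell in the second. Mavs, the adaptor that the RNA sensors share, Tbk1, Cgas and Sting1 did not pass in any comparison.

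Within families of antiviral effectors, some members passed and others did not. Oasl1, an OAS-like protein that holds back translation of Irf7 in mice, measured 6.38, 7.03 and 7.37 (lowest, median and highest) in RYGB livers, 6.21, 6.0, 5.76 and 6.02 in BWm livers, and 6.91, 6.82, 7.0, 6.51 and 6.41 in Sham AL livers. BWm livers lay below both other groups without overlap. Oasl1 rose in RYGB against BWm (log2 0.94 ± 0.18, adjusted p = 0.0031, limma). Its fall in BWm against Sham AL (log2 -0.74 ± 0.19, adjusted p = 0.039, limma) ended without RYGB replicate 2, Sham AL replicate 1, 2 or 3 or BWm replicate 2, 3 or 4 (highest adjusted p 0.14). The call also ended when array medians were subtracted (adjusted p = 0.064), as did that of Ifih1 (0.056).

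Its relative Oasl2, which keeps the enzyme activity of the family, did not pass in any comparison. It measured 6.15, 6.32 and 6.91 (lowest, median and highest) in RYGB livers, 6.2, 7.01, 6.43 and 6.3 in BWm livers, and 6.49, 6.57, 6.97, 6.37 and 6.39 in Sham AL livers, and the 3 ranges overlapped. RYGB against BWm was at log2 -0.07 ± 0.18 (adjusted p = 0.9, limma). Oas2 and Oas3, whose enzymes make the activator of RNase L, lay at -0.01 ± 0.22 and 0.02 ± 0.13 in the same comparison and did not pass.

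The IFIT proteins bind viral RNA and block its translation. Ifit1 measured 5.65, 6.12 and 6.48 (lowest, median and highest) in RYGB livers, 5.74, 5.63, 5.27 and 5.93 in BWm livers, and 6.53, 6.38, 6.18, 6.29 and 6.63 in Sham AL livers. BWm livers lay below all Sham AL livers, and RYGB livers spread over the range of both. Ifit1 fell in BWm against Sham AL (log2 -0.76 ± 0.18 SE, adjusted p = 0.025, limma). It was at 0.42 ± 0.17 in RYGB against BWm and -0.34 ± 0.16 in RYGB against Sham AL, and neither passed (adjusted p = 0.18 and 0.38, limma). The BWm call ended without Sham AL replicate 1, 2 or 5 or BWm replicate 2 or 3 (highest adjusted p 0.11). Ifit2 and Ifit3, neighbours of Ifit1 on chromosome 19, did not pass in any comparison, and near-identical copies such as Ifit3b can share their probe signal.

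Ifi35, a leucine zipper protein that partners with NMI, had BWm livers close together. Its signal was 6.93, 7.19 and 7.3 (lowest, median and highest) in RYGB livers, 6.56, 6.61, 6.6 and 6.59 in BWm livers, and 7.27, 7.23, 7.02, 7.21 and 7.25 in Sham AL livers. The 4 BWm livers had an SD of 0.02 and lay below every other array. Ifi35 rose in RYGB against BWm (log2 0.57 ± 0.09, adjusted p = 0.00085, limma) and fell in BWm against Sham AL (log2 -0.61 ± 0.10, adjusted p = 0.0023, limma). The probe table names a second, dimmer cluster for Ifi35, which did not share this pattern (log2 0.03 ± 0.12 in RYGB against BWm and 0.06 ± 0.12 in BWm against Sham AL). Both calls ended when the 2 clusters were averaged.

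Samd9l, an antiviral factor that restrains translation and cell growth, measured 5.18, 5.42 and 5.77 (lowest, median and highest) in RYGB livers, 5.07, 5.02, 4.78 and 4.95 in BWm livers, and 5.58, 5.55, 5.6, 5.49 and 5.9 in Sham AL livers. BWm values were below all others. It rose in RYGB against BWm (log2 0.50 ± 0.12, adjusted p = 0.016, limma) and fell in BWm against Sham AL (log2 -0.67 ± 0.12, adjusted p = 0.0062, limma). Without BWm replicate 3 the rise had an adjusted p of 0.069.

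Xaf1, which antagonises the apoptosis inhibitor XIAP, followed the same order. Its signal was 6.23, 6.44 and 6.53 (lowest, median and highest) in RYGB livers, 6.15, 6.03, 5.87 and 6.08 in BWm livers, and 6.24, 6.48, 6.53, 6.55 and 6.61 in Sham AL livers. All BWm livers were under all others. It rose in RYGB against BWm (log2 0.38 ± 0.10, adjusted p = 0.031, limma), a call that ended without RYGB replicate 2, 4, 5 or 6 or BWm replicate 2, 3 or 4 (highest adjusted p 0.12). It fell in BWm against Sham AL (log2 -0.45 ± 0.11, adjusted p = 0.025, limma), which ended without Sham AL replicate 2, 3, 4 or 5 or BWm replicate 2 or 3 (highest adjusted p 0.11). Without Sham AL replicate 4, the liver with RNA of other tissues, it was -0.43 with adjusted p = 0.054.

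The Mx proteins are dynamin-like GTPases that act against viruses. Mx2 measured 4.71, 5.0 and 5.23 (lowest, median and highest) in RYGB livers, 4.29, 4.72, 4.47 and 4.12 in BWm livers, and 5.05, 4.75, 5.02, 4.35 and 4.75 in Sham AL livers. RYGB livers overlapped with BWm replicate 2, and Sham AL livers with both groups. Mx2 rose in RYGB against BWm (log2 0.57 ± 0.15, adjusted p = 0.031, limma), and the call ended without RYGB replicate 3, 4 or 6 or BWm replicate 1, 3 or 4 (highest adjusted p 0.11) and under quantile normalization. Mx1 lay below the array medians, with group means of 3.0 in RYGB, 2.65 in BWm and 3.06 in Sham AL livers, and was not called. Rsad2 (viperin), Cmpk2, Bst2 (tetherin) and Rtp4 were at log2 0.17 to 0.30 in RYGB against BWm and at -0.32 to -0.23 in BWm against Sham AL, with none called.

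**Figure D3:**
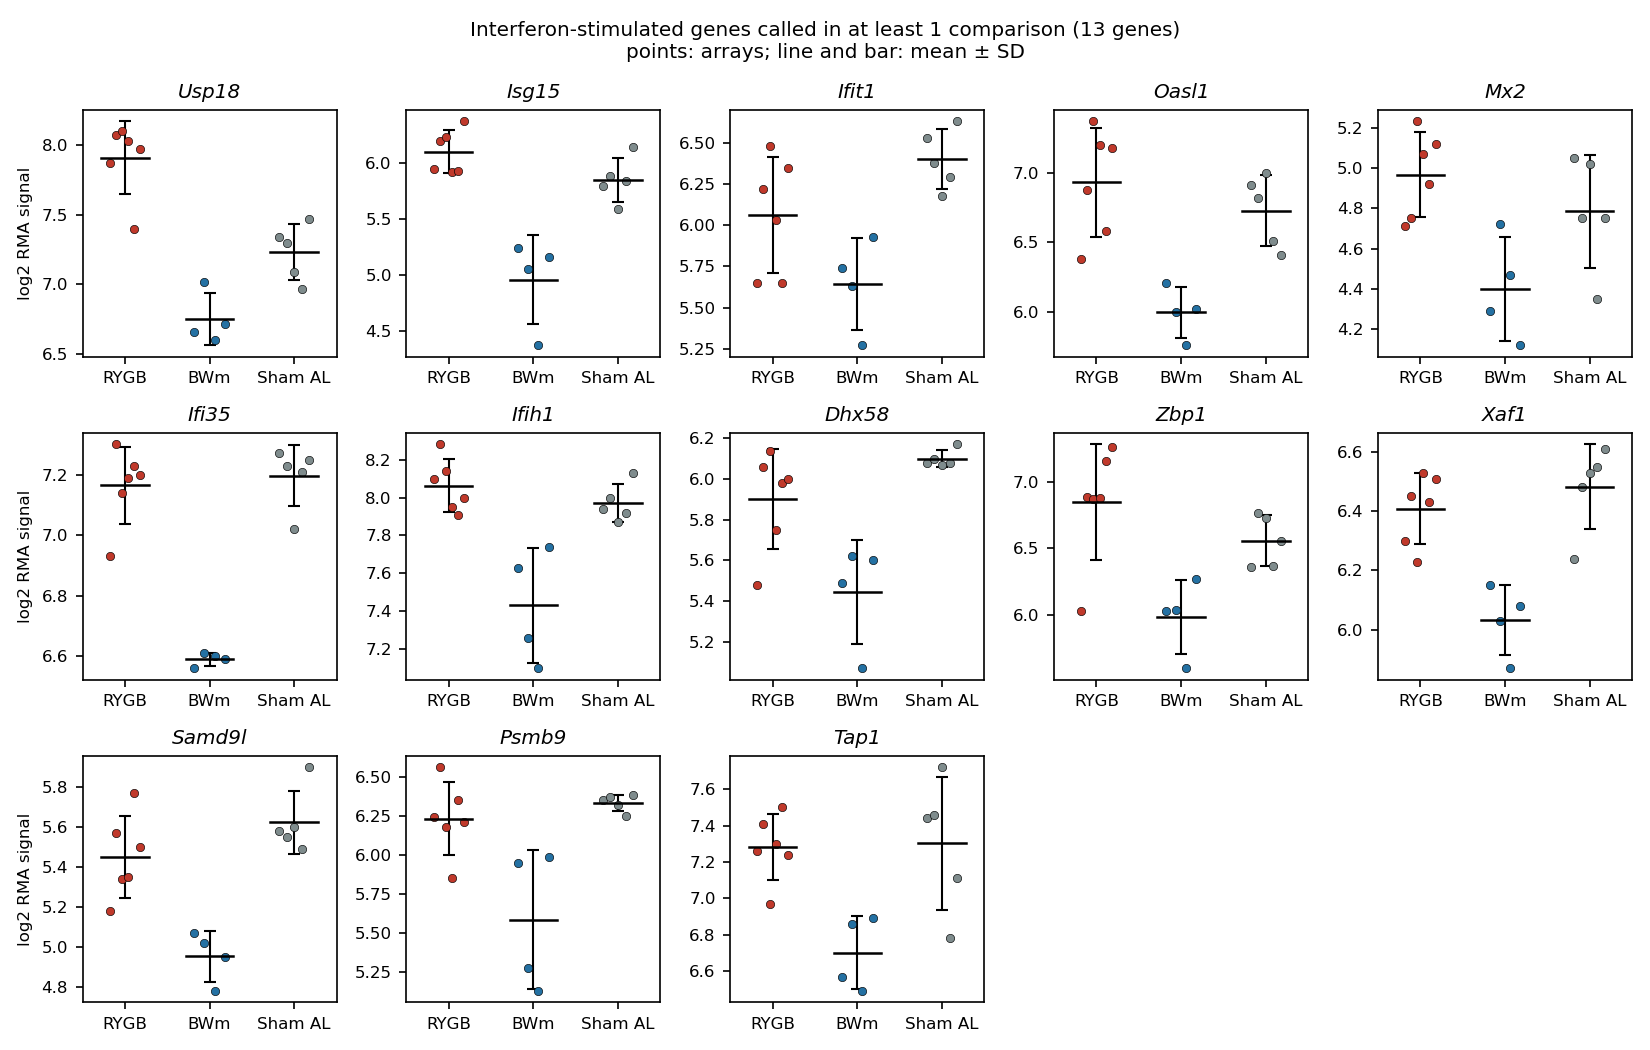
Log2 RMA signal of the 13 members called in at least 1 comparison, by array (points), with the mean (line) and SD (bar) of RYGB (n = 6), BWm (n = 4) and Sham AL (n = 5) livers; axes do not start at 0. The BWm livers have the lowest mean in each panel, and Ifi35 shows the tightest BWm group, at 6.56 to 6.61.

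The transcription factors of the pathway did not pass the test. Irf7, which drives the later wave of interferon alpha, measured 8.07, 8.41 and 8.84 (lowest, median and highest) in RYGB livers, 8.49, 8.18, 7.85 and 8.14 in BWm livers, and 8.32, 8.25, 8.49, 8.27 and 7.92 in Sham AL livers. The ranges overlapped, and RYGB against BWm was at log2 0.27 ± 0.15 (adjusted p = 0.37, limma). Stat2 had 7.51, 7.61 and 7.72 (lowest, median and highest) in RYGB livers, 7.32, 7.75, 7.43 and 7.34 in BWm livers, and 7.69, 7.71, 7.74, 7.27 and 7.42 in Sham AL livers, again with overlap (log2 0.15 ± 0.12 in RYGB against BWm, adjusted p = 0.58). Irf9 was at -0.07 ± 0.11 in that comparison and at 0.15 ± 0.11 in BWm against Sham AL. Irf1 measured log2 0.28 ± 0.12 in RYGB against BWm and 0.26 ± 0.11 in RYGB against Sham AL, with adjusted p = 0.22 and 0.32 (limma).

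Interferon gamma targets fell into antigen processing genes and GTPases. Psmb9 encodes a catalytic subunit of the immunoproteasome, which cuts proteins into peptides for MHC class I. It measured 5.85, 6.23 and 6.56 (lowest, median and highest) in RYGB livers, 5.95, 5.28, 5.13 and 5.99 in BWm livers, and 6.35, 6.37, 6.32, 6.25 and 6.38 in Sham AL livers. BWm replicates 2 and 3 lay far below the rest, and replicates 1 and 4 lay within the RYGB range but below all Sham AL livers. Psmb9 rose in RYGB against BWm (log2 0.64 ± 0.16 SE, adjusted p = 0.022, limma) and fell in BWm against Sham AL (log2 -0.75 ± 0.17, adjusted p = 0.021, limma). The rise ended without RYGB replicate 2 or BWm replicate 2 or 3 (highest adjusted p 0.11) and the fall without Sham AL replicate 2 or BWm replicate 2 or 3 (highest adjusted p 0.095). The rise also ended with quantile normalization (adjusted p = 0.059, limma), all transcript clusters (0.051) and the animal number block (0.073).

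Tap1, a subunit of the peptide transporter into the endoplasmic reticulum, measured 6.97, 7.28 and 7.5 (lowest, median and highest) in RYGB livers, 6.57, 6.86, 6.49 and 6.89 in BWm livers, and 7.44, 7.46, 7.72, 6.78 and 7.11 in Sham AL livers. RYGB livers lay above all BWm livers, and Sham AL replicate 4 lay within the BWm range. Tap1 rose in RYGB against BWm (log2 0.58 ± 0.16, adjusted p = 0.033, limma), a call that ended without RYGB replicate 2, 4, 5 or 6 or BWm replicate 1, 2 or 3 (highest adjusted p 0.13). It also ended with quantile normalization (adjusted p = 0.055, limma), array medians subtracted (0.053), all transcript clusters (0.073), and the animal number block (0.062), and at the fold threshold of the methods. BWm against Sham AL was at log2 -0.60 ± 0.16 (adjusted p = 0.058, limma). Without Sham AL replicate 4, the liver with RNA of other tissues, it was -0.73 with adjusted p = 0.012, and with all arrays and dim genes left out the adjusted p was 0.029.

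Psmb8, another catalytic subunit of the immunoproteasome, did not pass in any comparison. It measured 6.98, 7.05 and 7.25 (lowest, median and highest) in RYGB livers, 7.02, 6.9, 6.71 and 7.35 in BWm livers, and 7.2, 7.0, 7.09, 7.02 and 7.23 in Sham AL livers. BWm livers spanned both other groups. It was at log2 0.08 ± 0.11 in RYGB against BWm (adjusted p = 0.79, limma) and -0.11 ± 0.12 in BWm against Sham AL (adjusted p = 0.72, limma).

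Of the 5 measured GTPase genes, 0 passed in any comparison by limma, with 1, 2 and 0 at an unadjusted p under 0.05 in RYGB against BWm, BWm against Sham AL and RYGB against Sham AL. Irgm1, a regulator of the immunity-related GTPases, measured 5.5, 5.84 and 6.1 (lowest, median and highest) in RYGB livers, 5.44, 5.73, 5.18 and 5.61 in BWm livers, and 6.09, 5.98, 6.16, 5.65 and 6.07 in Sham AL livers, with overlap among all 3 groups. BWm against Sham AL was at log2 -0.50 ± 0.15 (adjusted p = 0.082, limma), and the adjusted p was 0.041 without Sham AL replicate 4 and 0.041 with dim genes left out. Gbp3, a guanylate-binding protein, measured 4.16, 4.82 and 5.06 (lowest, median and highest) in RYGB livers, 4.9, 4.8, 4.38 and 4.71 in BWm livers, and 5.02, 4.86, 5.11, 4.9 and 4.81 in Sham AL livers. Its groups overlapped, at log2 0.02 ± 0.16 in RYGB against BWm and -0.24 ± 0.17 in BWm against Sham AL. Igtp, Iigp1 and Gbp7 were at log2 0.21 to 0.44 in RYGB against BWm and -0.32 to -0.24 in BWm against Sham AL. Igtp alone of these passed in a fit with 1 array left out, in RYGB against BWm without RYGB replicate 1 (log2 0.58, adjusted p = 0.018).

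Cxcl10, a chemokine that draws T cells and answers to both kinds of interferon, varied within groups. It measured 5.44, 5.81 and 6.67 (lowest, median and highest) in RYGB livers, 5.76, 5.22, 5.38 and 5.21 in BWm livers, and 6.33, 5.87, 5.92, 5.32 and 5.98 in Sham AL livers. RYGB replicates 2 and 3, at 6.42 and 6.67, stood above the other 4 RYGB livers. RYGB against BWm was at log2 0.57 ± 0.22 (adjusted p = 0.16, limma).

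Other type I targets have roles in regulation. Parp9 and Parp14, ADP-ribosyltransferases that modify STAT signalling, were at log2 0.17 ± 0.12 and 0.24 ± 0.11 in RYGB against BWm. Lgals3bp, a secreted glycoprotein, was at 0.38 ± 0.18 there, and its second cluster at 0.54 ± 0.15. Trim30a was at -0.10 ± 0.21. None of these passed in any comparison.

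Type I and interferon gamma targets were set side by side, with no test of their difference. The classes are not exclusive, and 11 of 25 type I and 5 of 8 interferon gamma targets with a window held an ISRE. In RYGB against BWm, 10 of 31 type I targets (32.3%) and 2 of 8 interferon gamma targets (25.0%) rose, against 4.02% of all genes tested. The class medians were log2 0.30 and 0.26. The interferon gamma count was 0 of 8 with quantile normalization, with the animal number block and with all transcript clusters. The type I count also fell, to 7, 8 and 7 in the same order of settings. In BWm against Sham AL, 8 of 31 (25.8%) and 1 of 8 (12.5%) fell, against 1.3% of all genes tested. The class medians were -0.28 and -0.31. Their medians in RYGB against Sham AL were 0.04 and -0.05. In that comparison 0 of 8 interferon gamma targets passed by limma, and 0 had an unadjusted p under 0.05. Counting Irf1 and Cxcl10 with either class moved no median by more than 0.02. All 8 interferon gamma targets, and 25 of 31 type I targets, had their lowest group mean in BWm livers. The highest mean was in RYGB livers for 1 and in Sham AL livers for 7 of the 8 interferon gamma targets, and in RYGB livers for 13 and Sham AL livers for 14 of the 31 type I targets.

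The mean over the genes of each class, taken per array relative to the mean of all 15 arrays, shows single mice. For type I targets it was -0.097, 0.156, 0.205, 0.204, 0.008 and 0.154 in RYGB replicates 1 to 6. It was -0.238, -0.138, -0.362 and -0.201 in BWm livers, and 0.081, 0.042, 0.174, -0.077 and 0.09 in Sham AL livers. Each BWm liver lay below all others, while RYGB replicate 1 and Sham AL replicate 4 were lowest in their groups. For interferon gamma targets, RYGB livers lay between -0.094 and 0.22, BWm livers at -0.208, -0.222, -0.505 and -0.072, and Sham AL livers between -0.066 and 0.223. BWm replicate 4 overlapped with RYGB replicate 1, and replicate 3 was the lowest liver in both classes. The type I mean minus the interferon gamma mean was 0.046 ± 0.085 in RYGB, 0.017 ± 0.121 in BWm and -0.068 ± 0.049 in Sham AL livers (SD, n = 6, 4 and 5). These means were over genes chosen with earlier results known, and no test was made on them.

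**Figure D4:**
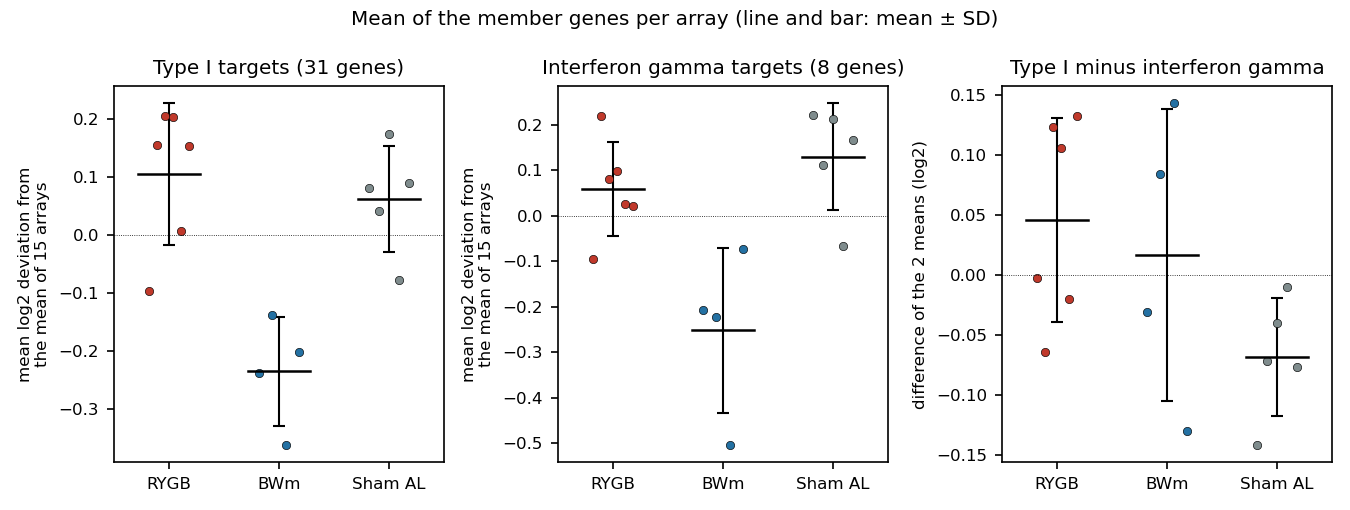
Mean log2 deviation per array over 31 type I targets (left) and 8 interferon gamma targets (middle), and their difference (right), for RYGB (n = 6), BWm (n = 4) and Sham AL (n = 5) livers; line and bar are the mean and SD. The 4 BWm livers lie below all others for type I targets, at -0.362 to -0.138, and the differences at right overlap between groups.

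Members also varied together among mice of a group. After the group means were removed, the Pearson correlation of a member with the type I mean over the 15 arrays had a median of 0.44 over the 41 members, against 0 over all genes tested. It was highest for Igtp (0.82), Rtp4 (0.81), Oasl1 (0.79) and Rsad2 (0.76), and near 0 for Psmb9 (0.03), Bst2 (0.03) and Iigp1 (-0.08). The type I mean contains 31 of these genes, and shared arrays link all of them, so the values are a description. Among the 13 members called in at least 1 comparison it ranged from 0.03 (Psmb9) to 0.79 (Oasl1). Outside the members the highest values were those of Atrip (0.86), Slc22a27 (0.83), Gm17768 (0.83), Gm15412 (0.83), Icam1 (0.83), Gm12250 (0.83), Mthfd1l (0.82) and Tmem248 (0.80). These genes are the top of 22180, whose values ran from -0.85 to 0.86, and no test was made on them. Of these genes, Gm12250 is listed in RefSeq as Irgb10, an immunity-related GTPase gene, and Icam1 encodes an adhesion molecule for leukocytes.

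**Figure D5:**
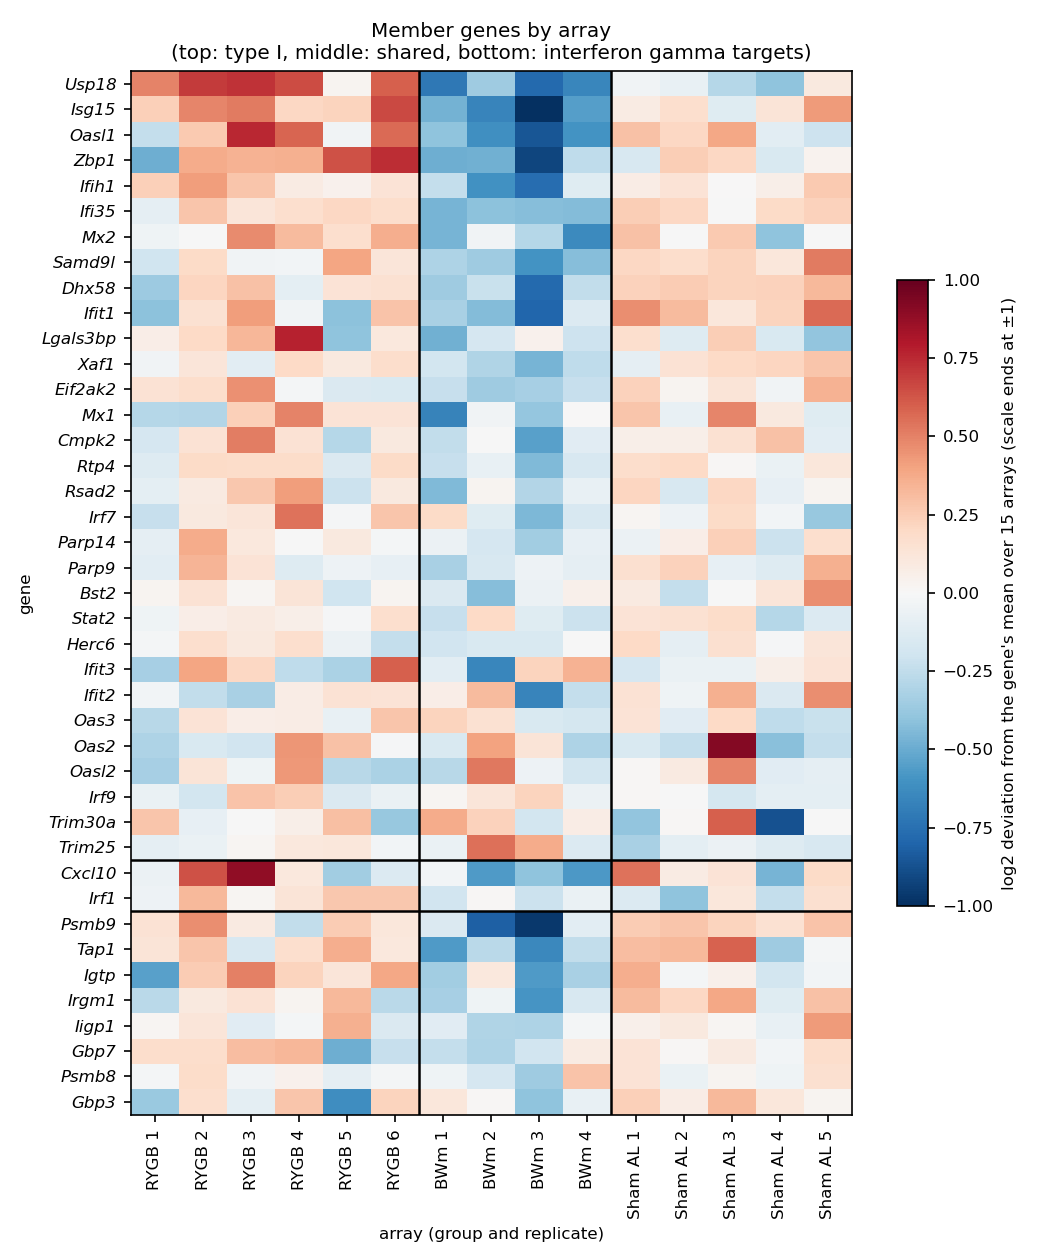
Log2 deviation of each measured member (rows) from its own mean over the 15 arrays (columns, by group and replicate), with colours ending at ±1; horizontal lines part type I, shared and interferon gamma targets. The BWm columns are mostly blue, with BWm replicate 3 lowest overall at a mean of -0.387, and RYGB replicate 1 is the lowest RYGB column at -0.094.

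Interferon genes themselves and their receptors did not pass the test. Of 19 measured interferon genes, 0 were called in any comparison by limma, with 0, 3 and 1 at an unadjusted p under 0.05 in RYGB against BWm, BWm against Sham AL and RYGB against Sham AL. Ifnb1 was at log2 0.07 in both comparisons of RYGB, and Ifng at -0.08 against BWm and -0.15 against Sham AL. Both lay below the array medians, with group means of 2.51 to 2.59 for Ifnb1 and 3.15 to 3.3 for Ifng. Several other interferon genes also lay below the array medians, so the lack of calls does not show that their RNA was unchanged. Of 6 receptor genes 0 were called by limma (3, 1 and 1 at an unadjusted p under 0.05 in RYGB against BWm, BWm against Sham AL and RYGB against Sham AL, where all genes had 18.4%, 15.3% and 12.9%), and their log2 fold changes in RYGB against BWm lay between 0.04 (Ifnar2) and 0.35 (Ifngr2). Of 6 genes of JAK and STAT signalling, Stat3, which carries signals of the interleukin-6 family, rose in RYGB against Sham AL (log2 0.37 ± 0.09, adjusted p = 0.042, limma). Of all genes tested, 0.938% rose there, and 4.02% rose in RYGB against BWm. Of 7 negative regulators, the one that passed was Usp18, already counted among the members, which rose in both of these comparisons. Socs3 was at log2 0.68 ± 0.17 in RYGB against Sham AL, near the threshold but not called (adjusted p = 0.06, limma). Socs1 was at -0.04 ± 0.10 in the same comparison.

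Further interferon targets stood on 2 lists. Of 33 other type I targets, 3 rose in RYGB against BWm (Ube2l6, Parp12 and Pnpt1) and 2 fell in BWm against Sham AL (Ube2l6 and Ddx60), with list medians of log2 0.20 and -0.21. Over all genes tested 4.02% rose and 1.3% fell in these comparisons. Of 25 other interferon gamma targets, 2 rose in RYGB against BWm, Wars, a tryptophanyl-tRNA synthetase gene (log2 0.71 ± 0.12), and Cd274, the gene of the checkpoint ligand PD-L1 (log2 0.61 ± 0.15). Wars and Gbp10 fell in BWm against Sham AL (log2 -0.49 ± 0.12 and -1.55 ± 0.29). Gbp10 averaged 7.32 in RYGB, 6.6 in BWm and 8.16 in Sham AL livers, and it can share probe signal with near copies such as Gbp6. The medians of this list were 0.09 and -0.19. The class I heavy chain gene H2-K1 and B2m did not pass.

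In bulk liver, fewer cells of a type and less RNA per cell cannot be told apart, so markers of liver cell types were measured beside these genes. Of 12 hepatocyte markers, 12 were below 0 in RYGB against BWm, with 0 called by limma and 1 at an unadjusted p under 0.05, and Cps1 rose in BWm against Sham AL (log2 0.44 ± 0.10). Their mean ranged from -0.184 to 0.026 in RYGB, 0.051 to 0.172 in BWm and -0.156 to 0.057 in Sham AL livers. Of 12 Kupffer cell markers, 0 passed in RYGB against BWm by limma, with 6 at an unadjusted p under 0.05 (18.4% over all genes). Their median there was log2 0.30. Cd163 rose in BWm against Sham AL (log2 1.07 ± 0.27). In RYGB against Sham AL, Adgre1 rose (log2 0.64 ± 0.14). All 12 were above 0 there, with 8 at an unadjusted p under 0.05 (12.9% over all genes) and a median of log2 0.42. The Kupffer list mean ranged from -0.057 to 0.426 in RYGB, -0.364 to 0.345 in BWm and -0.421 to 0.021 in Sham AL livers. Of 14 T and NK cell markers, 0 passed in RYGB against BWm (0 at an unadjusted p under 0.05, median 0.07) and Gzma fell in BWm against Sham AL (log2 -0.60 ± 0.16). Their means lay at -0.077 to 0.147, -0.173 to 0.105 and -0.013 to 0.085 in the same order of groups. Of 10 recruited macrophage markers, 0 passed in RYGB against BWm (6 at an unadjusted p under 0.05, median log2 0.54), and Ly6c2 fell in BWm against Sham AL (log2 -0.78 ± 0.19). Their means were -0.315 to 0.75 in RYGB, -0.471 to -0.125 in BWm and -0.345 to 0.215 in Sham AL livers.

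Among 7 markers of plasmacytoid dendritic cells, a main source of interferon alpha, the list mean ranged from -0.157 to 0.415 in RYGB, -0.446 to -0.323 in BWm and -0.101 to 0.325 in Sham AL livers. The list median was log2 0.12 in RYGB against BWm and -0.28 in BWm against Sham AL, and the one called gene was Ly6d, at 2.96 ± 0.48 and -2.09 ± 0.50, which averaged 7.34 in RYGB, 4.39 in BWm and 6.47 in Sham AL livers. Ly6d weighs heavily in the list mean. The other markers of the list lay at log2 0.03 to 0.30 in RYGB against BWm and -0.61 to 0.16 in BWm against Sham AL, with none called. Siglech, the defining marker, was at log2 0.15 in RYGB against BWm and -0.39 in BWm against Sham AL and was not called. Of 10 sinusoidal endothelial markers, 2 fell in RYGB against BWm, as did 2.34% of all genes tested, with a list median of log2 -0.44. These were Fcgr2b and Gpr182, both near the threshold (adjusted p = 0.043 and 0.049, limma). Neutrophil, B cell and dendritic cell markers had 0 calls by limma in the 3 comparisons, with 4 of 8, 1 of 5 and 0 of 6 genes at an unadjusted p under 0.05 in RYGB against BWm. The part that these cells play in the interferon results was not tested.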

How the data were processed

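RNA from 15 livers was hybridised to 1 array each. For 41345 transcript clusters the authors deposited log2 signals, made by RMA with Affymetrix Expression Console (version 1.4.1.46), per the labels and the submitters' processing notes. No scanner output was read, which leaves signal over background unmeasured, and precision is limited by how many arrays there are. The platform annotation gave 1 symbol for 23521 clusters, several for 1814 and none for 16010, and only the first were tested. The cluster with the highest mean was taken for the 1082 genes with more than 1, which left 22180 genes.

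The 3 comparisons were contrasts in 1 limma 3.58.1 fit (R 4.3.3) over the 15 arrays (degrees of freedom: 12 residual, 5.85 prior), two-sided, with Benjamini-Hochberg adjustment over all genes and a threshold of 0.05. The fit was tested on simulated data. Per-array values are given for members past the threshold, for a fixed set of 11 names of which 10 were measured, and for the 2 members of each class with the largest moderated t per comparison, 20 in all. The members and lists were chosen with earlier results of these data known, so no list has a test of its own. Promoter windows came from RefSeq on GRCm38.p6, and the build behind the array annotation is not given in the sources used here. Python 3.11.15, pandas 2.3.3 and matplotlib 3.10.9 made tables and figures. As alternatives, dim genes were filtered out, arrays were quantile normalized or had their medians subtracted, clusters of a gene were averaged or every cluster was tested, and fits used only the groups compared, a variance trend, a robust prior or weights per array. Blocks for the replicate number and for the animal number (under 50 or above 60), the one-way ANOVA of the methods, and fits with 1 array left out were also run. Same-numbered arrays were not treated as paired, since the labels state no pairing. Their deviations from group means correlated at -0.17 to 0.19, and 3 of 13 pairs were over 0.1. These correlations over all genes cannot exclude a pairing that affects some genes.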

Additional observations from a re-analysis of the deposited data

Results flagged for a closer look

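Among 69 groups of arrays checked (the 20 genes with per-array values and the class means, in 3 groups each), 5 held an array that stood apart from its group by a gap that chance gives in about 1 of 20 groups. Zbp1 in RYGB replicate 1 measured 6.03, against 6.87 to 7.26 in the other RYGB livers. Usp18 in RYGB replicate 5 measured 7.4, against 7.87 to 8.1 in the others. Samd9l in Sham AL replicate 5 measured 5.9, against 5.49 to 5.6 in the other Sham AL livers. Dhx58 in the same liver was at 6.17, against 6.07 to 6.1 in the others. Ifi35 in Sham AL replicate 3 was at 7.02, against 7.21 to 7.27.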

How the results depend on the processing

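Calls of members depended on the processing in number and not in direction: of 22 calls, 0 changed sign in any alternative, 9 were made in all 15 fits that left out 1 array, and 3 in every alternative as well. These 3 were Usp18, Isg15 and Ifih1 in RYGB against BWm. The count of 12 in RYGB against BWm was 7 with quantile normalization, 7 with all transcript clusters, 6 with the replicate block, 6 with the methods' one-way ANOVA after Benjamini-Hochberg and 6 at the methods' own thresholds. It was 13 with dim genes left out and 8 with the animal number block. It ranged from 5 (without BWm replicate 3) to 13 with 1 array left out. The count of 9 in BWm against Sham AL was 4 with all transcript clusters, 3 with the replicate block and 1 (Ifi35) with the ANOVA after Benjamini-Hochberg. It was 13 with dim genes left out, which added Usp18, Eif2ak2, Irgm1 and Tap1, and 11 with array weights, which added Irgm1 and Tap1. It ranged from 3 (without BWm replicate 3) to 10 with 1 array left out, and was 4 without BWm replicate 2 or Sham AL replicate 2. Testing all clusters adjusts over more features, and the cause of the other shifts was not tested. The 1 call in RYGB against Sham AL (Usp18) was 0 with the replicate block (1 member at an unadjusted p under 0.05) and 0 with the ANOVA after Benjamini-Hochberg (2 members), and 1 in every fit that left out 1 array. The median log2 fold change of the members ranged from 0.23 to 0.35, from -0.36 to -0.24 and from -0.05 to 0.06 in the same order of comparisons with 1 array left out. The rises of Psmb9 and Tap1 were among the calls lost with the replicate block (adjusted p = 0.094 and 0.12, limma). The labels state no pairing by replicate number, so the block is given only here.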
